A study of Schizosaccharomyces pombe with 6 samples.

Results

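The ght genes of the fission yeast Schizosaccharomyces pombe encode its hexose transporters, and the count table held all 8 of them, ght1 to ght8, among 6952 genes. They were found by their systematic identifiers, which carry these standard names in the RefSeq annotation. RNA was measured in cells sampled at day 6 of chronological ageing, when cultures no longer divide, in EMMG minimal medium. The aal1-pOE cells overexpressed aal1, a long non-coding RNA, from P41nmt1, a promoter repressed by thiamine, on a plasmid. The evc cells carried the empty vector. Both strains shared the 972 h- leu1-32 background. Each group had 3 libraries, called biological replicates in the labels. Since aal1 was driven from a plasmid beside the native gene, the comparison is about an excess of aal1 and not its loss.

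Ght proteins are sugar porters of the plasma membrane that import hexoses together with protons. In fission yeast Ght5 is the high-affinity transporter needed for growth on little glucose, its gene is derepressed when glucose runs low, and its protein is kept at the cell surface under control of TOR complex 2 (TORC2) and arrestin-like adaptors. Ght3 carries gluconate, an oxidised sugar acid. RefSeq annotates ght1, ght2, ght5 and ght6 as glucose or glucose/fructose symporters, ght3 as a gluconate symporter, and ght4, ght7 and ght8 as hexose transporters without a named substrate.

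The members differ in how well short reads can tell them apart, which bears on every count. Protein identity over 28 pairs was highest for ght5 and ght8, at 91.6% of aligned residues, and for ght3 and ght4, at 86.9%. The coding sequences of ght5 and ght8 shared 1 unbroken run of 248 bases, at positions 1007 to 1254 of each. In ght5 it lies on the plus strand at chrIII:213319-213566 and in ght8 on the minus strand at chrIII:227147-227394 (RefSeq assembly ASM294v3). It is printed because the bases of a read that lies wholly within it cannot tell ght5 from ght8. Capitals mark the 182 bases that ght1 also holds, on the minus strand at chrIII:233291-233472.
ght5 and ght8: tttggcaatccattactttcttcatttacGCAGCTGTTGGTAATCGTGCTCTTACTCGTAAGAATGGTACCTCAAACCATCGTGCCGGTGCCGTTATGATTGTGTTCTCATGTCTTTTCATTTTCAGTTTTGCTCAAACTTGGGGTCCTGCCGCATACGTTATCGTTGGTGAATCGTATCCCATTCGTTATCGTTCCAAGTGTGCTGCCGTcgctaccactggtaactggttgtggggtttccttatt
The second long run, of 240 bases at coding positions 856 to 1095, was shared by ght3 (plus strand, chrI:83791-84030) and ght4 (plus strand, chrII:158410-158649), and is printed in lower case throughout.
ght3 and ght4: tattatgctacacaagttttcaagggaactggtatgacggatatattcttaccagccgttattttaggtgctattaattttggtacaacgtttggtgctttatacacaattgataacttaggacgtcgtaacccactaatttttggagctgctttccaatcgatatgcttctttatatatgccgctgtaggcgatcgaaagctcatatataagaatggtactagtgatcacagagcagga

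To show how the other members depart from ght5, a window of 60 bases was placed in each coding sequence by protein alignment, at ght5 coding positions 1126 to 1185 (plus strand, chrIII:213438-213497). Capitals mark bases that differ from ght5, and ght1 and ght8 had the letters of ght5 at all 60 positions.
ght5: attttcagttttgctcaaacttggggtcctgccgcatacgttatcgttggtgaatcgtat
ght6: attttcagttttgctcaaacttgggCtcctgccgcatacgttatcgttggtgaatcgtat
ght2: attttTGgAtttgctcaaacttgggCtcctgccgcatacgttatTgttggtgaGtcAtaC
ght7: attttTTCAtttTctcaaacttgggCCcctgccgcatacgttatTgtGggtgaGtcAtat
ght3: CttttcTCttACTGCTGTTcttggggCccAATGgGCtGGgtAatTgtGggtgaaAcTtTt
ght4: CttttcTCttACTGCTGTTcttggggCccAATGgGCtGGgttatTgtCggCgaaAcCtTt
The ght6 window (plus strand, chrIII:205864-205923) differed at 1 base, ght2 (plus strand, chrII:3428709-3428768) at 8 and ght7 (minus strand, chrII:39049-39108) at 11. The windows of ght3 (plus strand, chrI:84061-84120) and ght4 (plus strand, chrII:158680-158739) each differed at 27 bases. Both of these proteins differed from Ght5 at 10 of the 20 residues encoded there.

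**Figure D1:**
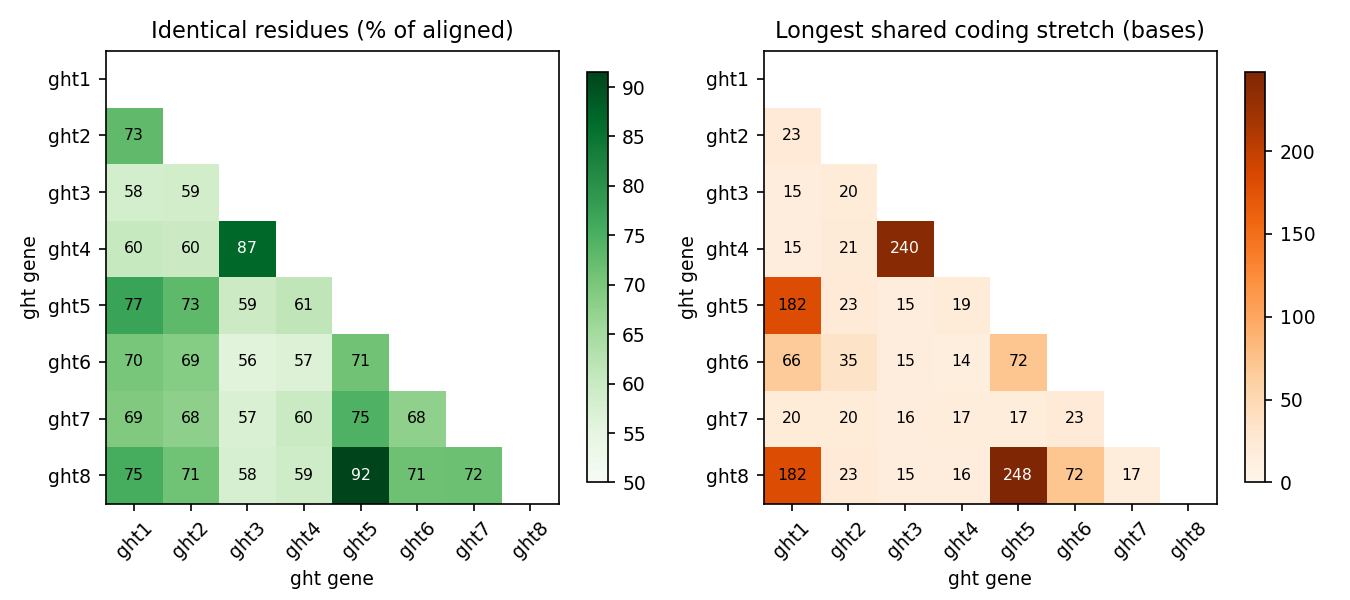
Left, identical residues as a percent of aligned residues for each pair of Ght proteins. Right, the longest run of identical bases shared by each pair of coding sequences; ght5 with ght8 (248 bases) and ght3 with ght4 (240 bases) hold the longest, and ght1 shares 182 bases with both ght5 and ght8.

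Of the 33-base positions of each transcript, the length left after the clipping that the methods give, 35.3% in ght5 and 30.1% in ght8 occurred elsewhere in the reference genome. The share was 13.5% in ght3, 7.86% in ght1, 6.53% in ght4 and 5.48% in ght6, and it was 0.179% in ght2 and 0 in ght7. By default HTSeq does not count a read that aligns to several places, so levels of ght5 and ght8 are uncertain relative to ght2. The size of that loss was not measured. These shares are for single reads. The libraries were paired-end, so a mate outside a shared run could place a pair, and the shares may overstate the ambiguity.

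All members were single-exon genes in the annotation. A cluster on chromosome III between 204733 and 235195 held ght6 (204733 to 206717, plus strand), ght5 (212313 to 214376, plus strand), ght8 (226336 to 228845, minus strand) and ght1 (232288 to 235195, minus strand). On chromosome II lay ght7 (38514 to 40143, minus strand), ght4 (155772 to 159570, plus strand) and ght2 (3427160 to 3429424, plus strand), and ght3 lay on chromosome I (82936 to 84786, plus strand).

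Library totals ranged from 5839863 to 13164975 counts. The composition factors of the trimmed mean of M-values (TMM), which rescale library totals so that most genes do not differ, were 1.07, 1.80 and 1.04 in the aal1-pOE libraries, compared with 0.850, 0.763 and 0.771 in evc, and genes of cytosolic ribosomal proteins took 2.74 to 3.798% of the counts in the aal1-pOE libraries, compared with 6.79 to 11.4% in evc. Without a composition factor the median log2 fold change of all tested genes was 0.80, against 0.08 with TMM, so the members are given under both scalings. Replicate 2 of aal1-pOE stood apart, with a mean correlation of 0.907 with its own group against 0.939 to 0.977 in the other libraries. Several results that rest on it are also given without it. The overexpressed aal1 had 54, 141 and 58 counts in the aal1-pOE libraries, compared with 4, 2 and 4 in evc, and a log2 fold change of 3.39 ± 0.58 (SE, n = 3 per group, edgeR adjusted p = 0.0106). This call was lost without evc replicate 2 (3.21, adjusted p = 0.0763) or evc replicate 3 (3.58, adjusted p = 0.0632). The aal1 gene passed the filter for low counts only through its aal1-pOE libraries, so its p-value is a check of the labels only. On the opposite strand of this locus SPNCRNA.401 had 105, 239 and 103 counts, compared with 7, 3 and 3 in evc, and was higher by 3.88 ± 0.54 (SE, log2 scale, adjusted p = 0.00651). The M-factor genes mfm1, mfm2 and mfm3, expected of h- cells, were between 0 and 19.6 CPM (counts per 1000000 counts of the library, here after TMM scaling), and the M-cell genes mam1 and mam2 were between 55.3 and 119 CPM and between 1.01 and 7.92 CPM. The P-cell genes map2 and map3 were between 5.23 and 44.4 CPM. In every library map3 lay above mfm1, mfm3 and mam2 and below mam1. It was called lower in aal1-pOE (log2 fold change -1.06 ± 0.25, SE, edgeR adjusted p = 0.0379), beside 4.64% of all tested genes. The other P-cell gene, map2, was fitted higher, at 0.38 (adjusted p = 0.617). Of the M-cell genes, mfm2 was at 3.28 (adjusted p = 0.0967), mam2 at 1.59 (0.185), mam1 at 0.27 (0.575) and mfm1 at -0.55 (0.68). None of these was called in this fit, and mfm3 was not tested. DESeq2 and the likelihood ratio test of edgeR called mfm2 higher, beside 6.75% and 6.82% of all genes.

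Unless stated otherwise CPM are TMM-scaled, and p-values are from the edgeR quasi-likelihood test with Benjamini-Hochberg adjustment over all 5823 tested genes. No member passed an adjusted p of 0.05. Of the 7 members that passed the filter of more than 1 CPM in at least 3 libraries, 0 were called higher and 0 lower, and 1, ght2, had an unadjusted p under 0.05. Among all tested genes 1.36% were called higher and 4.64% lower, and 27.2% had an unadjusted p under 0.05. DESeq2 and the edgeR likelihood ratio test each called 1 member, ght2, lower, and limma-voom called 0. Over all genes DESeq2 called 6.75% higher and 8.8% lower, and the likelihood ratio test 6.82% higher and 8.11% lower. The median log2 fold change of all tested genes was 0.08, and that of the 7 members was 0.54. In TMM-scaled CPM the groups did not overlap for 1 of the 7, ght2, which was lower, beside 19.1% of all tested genes that were lower and 18.4% that were higher without overlap. With aal1-pOE replicate 2 and evc replicate 1 both left out, ght1, ght4, ght5 and ght8 were called higher and ght2 lower. In that fit, however, 19.4% of all tested genes were called higher and 20.2% lower, and its 4 libraries were selected with earlier results known.

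The main glucose transporter gene, ght5, was the most abundant member in every library. Its level was 2619, 2045 and 3391 CPM in replicates 1, 2 and 3 of aal1-pOE, compared with 2411, 1308 and 1295 CPM in those of evc. All aal1-pOE libraries lay above evc replicates 2 and 3, but evc replicate 1 lay above aal1-pOE replicate 2, so the groups overlapped. The log2 fold change of ght5 was 0.68 ± 0.42 (SE, n = 3 per group, adjusted p = 0.304), with a 95% interval of -0.25 to 1.62. Among 4911 protein-coding genes ranked by CPM per kilobase of transcript, ght5 ranked 45, 23 and 33 in the aal1-pOE libraries and 101, 252 and 256 in evc. Every aal1-pOE library placed ght5 higher than every evc library did. The same was true of ght8, at 222, 56 and 238 against 307, 500 and 533, and of 18.8% of these genes. Ranks need no scaling factor but still follow the composition of the library, in which the ribosomal protein share differed between the groups. Evc replicate 1, the nearest to aal1-pOE in this respect, also had the lowest share of ribosomal protein counts in its group, at 6.79% against 11.2% and 11.4%, and the part of that difference in the ght5 level was not tested.

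Its closest relative ght8 was next in abundance in aal1-pOE. The ght8 level was 895.0, 1255 and 850.2 CPM in the aal1-pOE libraries, compared with 935.5, 632.5 and 570.7 CPM in evc. The order of libraries resembled that of ght5 in evc, with replicate 1 highest, but not in aal1-pOE, where ght8 was highest in replicate 2 and ght5 lowest there. For ght8 the log2 fold change was 0.49 ± 0.33 (SE, adjusted p = 0.347), with a 95% interval of -0.26 to 1.23. Without aal1-pOE replicate 2 it was 0.31 (adjusted p = 0.377).

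The glucose/fructose symporter gene ght2 was the one tested member with a fitted level below evc. It stood at 521.9, 360.6 and 370.0 CPM in the aal1-pOE libraries, compared with 678.3, 833.5 and 800.1 CPM in evc, or 417.5 ± 90.5 against 770.7 ± 81.7 CPM (SD, n = 3). Every aal1-pOE library was below every evc library on this scale. The log2 fold change was -0.88 ± 0.29 (SE, unadjusted p = 0.0124, adjusted p = 0.0924), with a 95% interval of -1.53 to -0.24 that is not adjusted for the number of genes. The difference therefore missed the threshold. It was past it without aal1-pOE replicate 2 (adjusted p = 0.0435), in a fit that called 9.09% of all tested genes lower, and with library totals in place of TMM its log2 fold change was -0.20 (adjusted p = 0.488). On that scale the groups overlapped, at 560.8, 647.1 and 382.9 CPM in the aal1-pOE libraries, compared with 576.3, 636.1 and 617.0 CPM in evc. Few reads of ght2 can be confused with another gene, since 0.179% of its 33-base positions recur in the genome.

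The high-affinity glucose symporter gene ght1 was expressed far below these 3. It was at 60.02, 32.2 and 53.1 CPM in the aal1-pOE libraries, compared with 62.9, 39.3 and 29.0 CPM in evc. The ranges overlapped almost wholly, with the highest value in evc replicate 1. For ght1 the log2 fold change was 0.14 ± 0.34 (SE, adjusted p = 0.795), and the 95% interval ran from -0.62 to 0.90.

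The means of the related pair ght3 and ght4 in aal1-pOE were set largely by replicate 2. The gluconate symporter gene ght3 was at 11.3, 58.8 and 8.83 CPM in the aal1-pOE libraries, compared with 19.9, 7.40 and 7.45 CPM in evc. Replicate 2 of aal1-pOE was the highest, evc replicate 1 the next, and the other 4 libraries lay between 7.40 and 11.3 CPM. The log2 fold change was 1.19 ± 0.72 (SE, adjusted p = 0.305), and without aal1-pOE replicate 2 it was -0.20 (adjusted p = 0.798).

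The hexose transporter gene ght4 had the same 2 libraries on top, at 31.9, 80.1 and 23.8 CPM in the aal1-pOE libraries, compared with 33.2, 17.9 and 14.7 CPM in evc. The groups overlapped. Apart from these 2, which were the highest of each group, its aal1-pOE libraries lay above its evc libraries. In the fit without this pair, however, 19.4% of all tested genes were called higher. With all libraries the fitted log2 fold change of ght4 was 1.05 ± 0.48 (SE, adjusted p = 0.193). Without aal1-pOE replicate 2 it was 0.36 (adjusted p = 0.515). The glucose-derepressed invertase gene inv1, chosen for mention after its values were seen, was also highest in aal1-pOE replicate 2. It was at 131 CPM there, against 31.8 to 61.0 CPM in the other 5 libraries. The other marker of glucose derepression, fbp1, was at 838 CPM in that library, against 585 to 782 CPM in the others. Since this library stood apart over the whole table, neither marker singles out a cause, and their part in the ght3 and ght4 values was not tested.

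The symporter gene ght6 and the transporter gene ght7 were near the limit of detection. The ght6 gene was counted 13, 62 and 9 times in the aal1-pOE libraries, compared with 5, 7 and 7 times in evc. After TMM scaling it lay between 0.844 and 2.62 CPM in all 6 libraries, and the groups overlapped. On the log2 scale ght6 was fitted at 0.54 ± 0.60 (SE, adjusted p = 0.56), and the ratio of pooled counts was 1.72 after TMM scaling, with an exact 95% counting interval of 1.04 to 3.0. Replicate 2 gave 62 of the 84 aal1-pOE counts, and without it the log2 fold change was 0.17 (adjusted p = 0.84).

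The ght7 gene did not pass the filter and was not in the fit. Its counts were 5, 8 and 1 in the aal1-pOE libraries, compared with 8, 4 and 10 in evc, or 0.528, 0.339 and 0.158 CPM against 1.35, 0.897 and 2.01 CPM. In CPM every aal1-pOE library was below every evc library, beside 19.1% of all tested genes on this scale. The raw counts overlapped. The ratio of pooled counts was 0.248 after TMM scaling, with an exact 95% interval of 0.117 to 0.507, and 0.436 with library totals (0.206 to 0.892). These intervals cover counting error only and leave out the spread between cultures. In a fit without the filter, over 6684 genes, the log2 fold change of ght7 was -1.97 ± 0.78 (SE, adjusted p = 0.154).

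**Figure D2:**
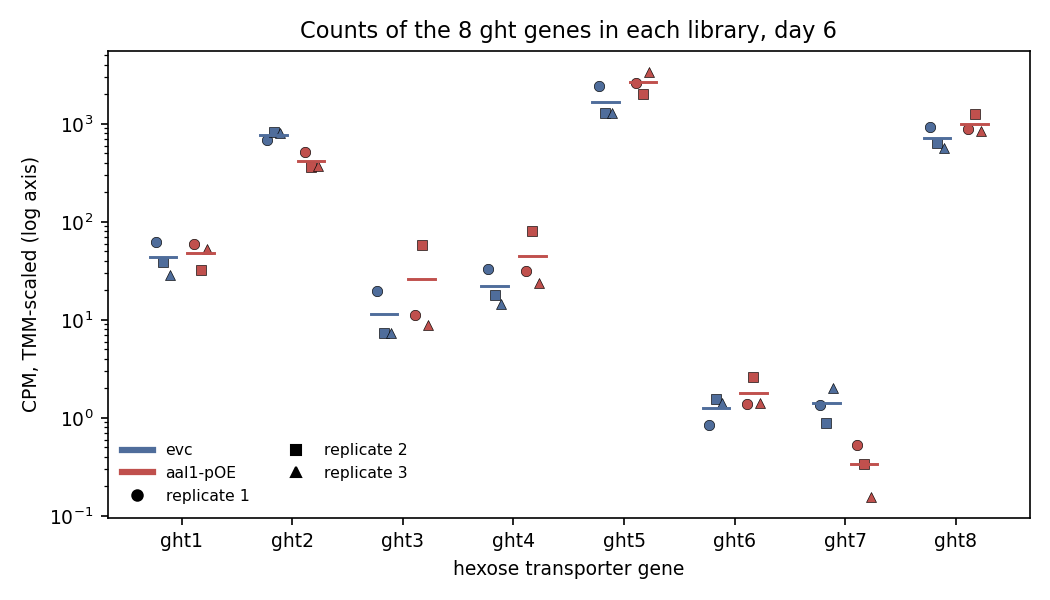
TMM-scaled CPM of each ght gene in each library, on a log axis, with blue for evc and red for aal1-pOE, a symbol per replicate and a line at the group mean. The aal1-pOE points lie wholly below the evc points for ght2 (360.6 to 521.9 against 678.3 to 833.5 CPM) and for ght7 (1 to 10 counts per library). They overlap for the other 6 genes, and 19.1% of all tested genes were lower without overlap.

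**Figure D3:**
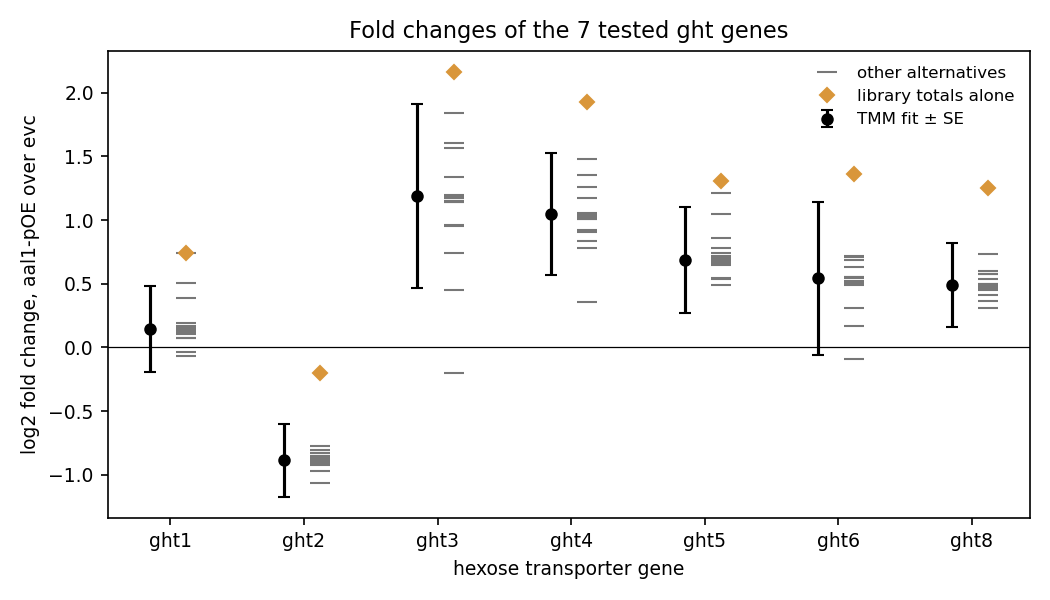
Log2 fold change of each tested ght gene (aal1-pOE over evc), with the TMM fit and its SE as a black point and bar, the fit on library totals as a diamond, and the other alternative fits as dashes. The diamonds lie above the TMM fit for all 7 genes, and ght2 is the one gene below 0 in every fit (-1.07 to -0.20).

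Compared per kilobase of transcript, the members spanned more than 3 orders of magnitude on the TMM-scaled CPM scale. In evc the level of ght5 was 809.7 ± 310.4 CPM per kilobase (SD, n = 3), followed by ght2 at 340.3 ± 36.1 and ght8 at 284.0 ± 77.8. Then came ght1 at 15.04 ± 5.99, ght3 at 6.26 ± 3.89, ght4 at 5.78 ± 2.61, ght7 at 0.871 ± 0.344 and ght6 at 0.642 ± 0.192. The neighbours ght2 and ght8, ght1 and ght3, ght3 and ght4, and ght7 and ght6 overlapped in their evc ranges. Within each evc library, however, ght1 was above ght3. The evc range of ght5 lay wholly above that of ght2, that of ght8 above ght1 and that of ght4 above ght7.

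In aal1-pOE the level of ght5 was 1301 ± 327.4 CPM per kilobase, of ght8 398.5 ± 88.5 and of ght2 184.3 ± 40.0 (SD, n = 3), so that ght8 stood above ght2. These 3 ranges did not overlap each other in aal1-pOE. Lower down, ght1 was at 16.7 ± 4.99, ght3 at 14.2 ± 15.2 and ght4 at 11.9 ± 8.02, which overlapped, and ght6 at 0.910 ± 0.358 lay above ght7 at 0.210 ± 0.114 in every library. The order of ght8 and ght2 in evc depended on the length used. The ratio of ght8 to ght2 means in evc was 0.835 per kilobase of transcript, 0.898 per kilobase of coding length and 1.19 per kilobase of unique 33-base positions, a scale chosen after the data were seen.

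The make-up of the family was then compared, since shares within a library do not depend on its scaling. The ght2 share of all ght counts was 12.6, 9.41 and 7.87% in the aal1-pOE libraries, compared with 16.4, 29.3 and 29.4% in evc. Every aal1-pOE library had a smaller ght2 share than every evc library, with evc replicate 1 nearest to aal1-pOE. The means were 9.96 ± 2.41% and 25.04 ± 7.51% (SD, n = 3). Separation of the groups was common, since in TMM-scaled CPM 19.1% of all tested genes were lower and 18.4% higher without overlap. A like figure for shares within other families was not computed.

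The share of ght5 was 63.2, 53.3 and 72.2% in the aal1-pOE libraries, compared with 58.2, 46.0 and 47.6% in evc, and these ranges overlapped. For ght8 the shares were 21.6, 32.7 and 18.1% in the aal1-pOE libraries, compared with 22.6, 22.3 and 21.0% in evc. The ght8 share was thus nearly constant among the evc libraries and lay both above and below them in aal1-pOE. The other 5 genes together made up only a small part of the counts in every library.

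**Figure D4:**
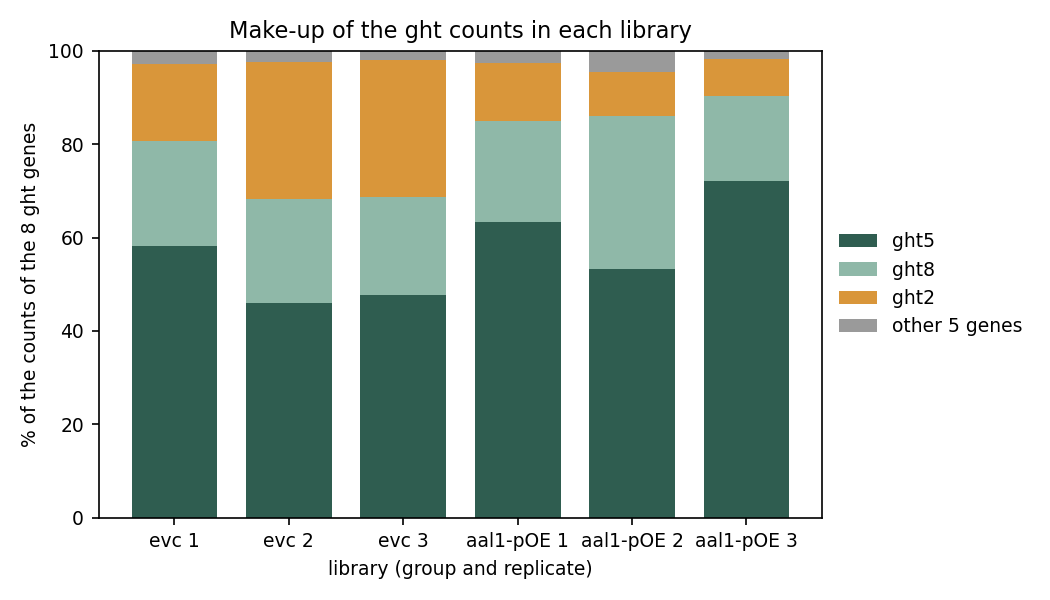
Stacked bars of the percent of all ght counts taken by ght5, ght8, ght2 and the other 5 genes in each of the 6 libraries. The ght2 part is 16.4 to 29.4% in evc and 7.87 to 12.6% in aal1-pOE, while the ght5 part overlaps between the groups.

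The same pattern appeared in ratios between members, chosen for display after the values were seen and given without a test. In aal1-pOE there were 5.02, 5.67 and 9.17 ght5 counts for each ght2 count, and in evc 3.55, 1.57 and 1.62. The ratio of ght8 to ght2 counts was 1.71, 3.48 and 2.30 in the aal1-pOE libraries, compared with 1.38, 0.759 and 0.713 in evc. Neither pair of ranges overlapped, and in both evc replicate 1 was the evc library nearest to aal1-pOE. By contrast the ratio of ght5 to ght8 counts overlapped between the groups, at 2.93, 1.63 and 3.99 in the aal1-pOE libraries, compared with 2.58, 2.07 and 2.27 in evc. The ratio of ght3 to ght4 counts overlapped as well, at 0.354, 0.733 and 0.371 against 0.599, 0.412 and 0.507. Hence the ratios within both of the most similar pairs overlapped between the groups. The ratios of ght5, ght8 and ght4 to ght2 did not, and all of these have ght2 as denominator. They are thus not independent of the ght2 share given above. How often ratios between other genes separate the groups was not computed.

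**Figure D5:**
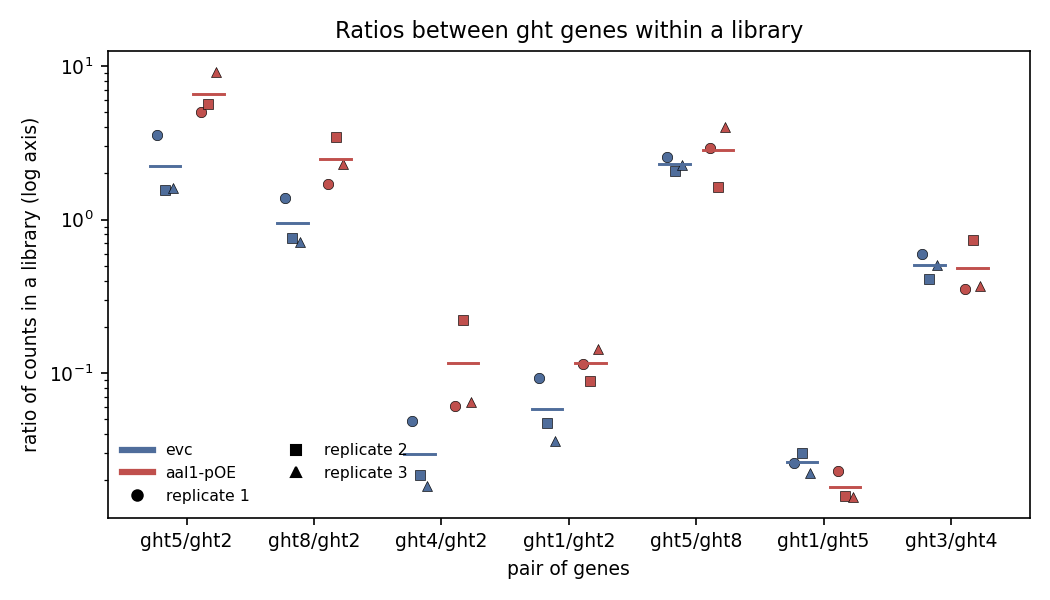
Ratios of raw counts between pairs of ght genes within each library, on a log axis, with blue for evc, red for aal1-pOE and a line at the group mean. The groups are apart for ght5/ght2 (5.02 to 9.17 against 1.57 to 3.55), ght8/ght2 and ght4/ght2, and overlap for the other 4 pairs.

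As a whole the family took 0.445, 0.688 and 0.486% of all counts in the aal1-pOE libraries, compared with 0.352, 0.217 and 0.210% in evc. The means were 0.540 ± 0.130% and 0.260 ± 0.0801% (SD, n = 3), a ratio of 2.08, and the groups did not overlap. The difference of the means was 0.280 percentage points, and 0.206 without aal1-pOE replicate 2. After TMM scaling the family total was 4141, 3835 and 4699 CPM in the aal1-pOE libraries, compared with 4143, 2841 and 2721 CPM in evc, and the groups overlapped. On library totals 4 of the 7 tested members, ght1, ght5, ght6 and ght8, were higher without overlap and 0 were lower, beside 47.2% of all tested genes that were higher and 6.29% that were lower. In the edgeR fit on library totals ght5 alone was called higher (log2 fold change 1.31, adjusted p = 0.0466), beside 8.88% of all tested genes. On that scale ght1 was at 0.74 (adjusted p = 0.146), ght3 at 2.16 (0.115), ght4 at 1.93 (0.0759), ght6 at 1.36 (0.145) and ght8 at 1.25 (0.0617). These values stand beside the median of 0.80 over all tested genes. The family thus took a larger share of the sequenced RNA, on a scale on which most genes also stood higher.

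Transcripts that overlap the members on the other strand were also counted, since the libraries kept strand. Of 12 genes that overlap a member in the RefSeq annotation, 5 were rows of the count table. The antisense non-coding gene SPNCRNA.1319 (chromosome II, 157362 to 158316, minus strand) lies wholly within ght4 and spans its start codon, which the annotation places after a 5′ leader of 1783 bases. Its counts were 171, 303 and 127 in the aal1-pOE libraries, compared with 23, 10 and 20 in evc, or 18.1, 12.8 and 20.0 CPM against 3.88, 2.24 and 4.02 CPM. All aal1-pOE libraries were above all evc libraries, as for 18.4% of all tested genes. Replicate 2 of aal1-pOE, which had the most ght4 counts after scaling, had the lowest antisense level of its group. That is 1 library, and a relation between the strands was not tested. On the log2 scale SPNCRNA.1319 was higher by 2.31 ± 0.43 (SE, adjusted p = 0.0148), beside 1.36% of all tested genes called higher. It was called in 13 of 16 alternative fits, with adjusted p-values from 6.96e-06 to 0.1. The call was lost without aal1-pOE replicate 1 (2.27, adjusted p = 0.0612), evc replicate 2 (2.09, adjusted p = 0.1) or evc replicate 3 (2.46, adjusted p = 0.0739). Hence the antisense transcript was called higher in aal1-pOE, while sense ght4, also fitted higher at 1.05 ± 0.48, did not pass the test.

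The antisense genes SPNCRNA.1318 at the 5′ end of ght4 (log2 fold change -0.26 ± 0.32, adjusted p = 0.60), SPNCRNA.1121 across the 5′ end of ght1 (0.33 ± 0.46, adjusted p = 0.647) and SPNCRNA.1118, which covers all of ght6 (-0.0083 ± 0.28, adjusted p = 0.987), were not called. In every library SPNCRNA.1118 had many times the counts of the ght6 gene, with 281, 859 and 187 counts in the aal1-pOE libraries, compared with 151, 195 and 135 in evc, so that most counted reads from this locus came from the antisense strand. SPNCRNA.298, on the strand of ght4 and inside it, had 0 counts in all libraries. HTSeq by default assigns no read that overlaps both genes, so its 750 bases could add to neither. Over the remaining 3049 bases the ght4 level was 14.9 ± 9.99 CPM per kilobase in the aal1-pOE libraries (SD, n = 3), compared with 7.202 ± 3.25 in the evc libraries.

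Genes that act around the transporters were then examined in lists, and none of their genes was called in either direction by the edgeR quasi-likelihood test or by limma-voom. The glucose repression and cAMP-PKA regulators act in the response to glucose, but not all in the same direction, so their median is not a measure of repression. All 17 were tested. Their median log2 fold change was 0.0058, and 1 had an unadjusted p under 0.05. The smallest p belonged to cgs2, which encodes the phosphodiesterase that degrades cAMP, at 503, 159 and 528 CPM in aal1-pOE against 666, 960 and 873 CPM in evc. All aal1-pOE libraries were lower, as for 19.1% of all tested genes, with a fitted change of -1.07 ± 0.44 (SE, log2 scale, adjusted p = 0.16). Without aal1-pOE replicate 2 the change of cgs2 was -0.68 (adjusted p = 0.0521).

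Of 16 genes for TORC2, its kinases and the arrestin and ubiquitin ligase system that controls Ght5 at the plasma membrane, 14 were tested, with a median of 0.08, and 3 had an unadjusted p under 0.05. DESeq2 called 1 of them lower, the arrestin gene aly3, beside 8.8% of all genes. The aly3 level was 321, 176 and 337 CPM in aal1-pOE against 583, 481 and 447 CPM in evc. In the quasi-likelihood fit its log2 fold change was -0.86 ± 0.31 (adjusted p = 0.119). The arrestin-related gene aly1 had the smallest p, at 141, 105 and 165 CPM in aal1-pOE against 99.9, 83.9 and 68.2 CPM in evc (log2 fold change 0.70 ± 0.25, adjusted p = 0.112). The groups did not overlap for either arrestin gene, aal1-pOE being higher for aly1 and lower for aly3. Of all tested genes 18.4% were higher and 19.1% lower without overlap. The 6 genes of hexose phosphorylation and upper glycolysis, which use the imported sugar, had a median of -0.28 and 0 with an unadjusted p under 0.05 (pfk1, phosphofructokinase, -0.70 ± 0.34, adjusted p = 0.219).

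The 5 gluconate and oxidative pentose phosphate genes had a median of -0.93, and 3 of them had an unadjusted p under 0.05. DESeq2 called these 3 lower (gnd1, gcd1 and SPAC3C7.13c), beside 8.8% of all genes, and the edgeR likelihood ratio test 2 of them, beside 8.11%. The gene nearest to the threshold was gnd1, which encodes 6-phosphogluconate dehydrogenase, at 297, 187 and 277 CPM in aal1-pOE against 390, 708 and 747 CPM in evc. All aal1-pOE libraries were lower, as for 19.1% of all tested genes, and the log2 fold change was -1.28 ± 0.34 (SE, adjusted p = 0.0571).

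Among 6 sugar hydrolase genes, whose enzymes release hexoses from larger sugars, the median was 0.39 and 1 had an unadjusted p under 0.05 (the maltase gene mal1, next to ght4, 0.88 ± 0.34, adjusted p = 0.14). The 15 tested genes of other plasma membrane transporters had a median of -0.27 and 5 with an unadjusted p under 0.05, and the ammonium transporter gene amt2 was nearest to the threshold, at 264, 147 and 255 CPM against 533, 402 and 405 CPM (-1.01 ± 0.30, adjusted p = 0.0738). DESeq2 called 1 of these higher, sut1, and 2 lower, amt2 and zrt1, beside 6.75% and 8.8% of all genes. The likelihood ratio test called sut1 higher and amt2 lower, beside 6.82% and 8.11% of all genes. Of the 14 nearest protein-coding neighbours of the members, 11 were tested, 0 were called, 3 had an unadjusted p under 0.05 and their median was 0.41, against 0.54 for the ght genes themselves. DESeq2 and the likelihood ratio test called 1 neighbour higher, usp102 beside ght2, which encodes a U1 snRNP protein. In these fits 6.75% and 6.82% of all genes were called higher.

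The 3 genes with the profile most like ght5 over the 6 libraries, among 4422 tested genes whose mean was 10 CPM or more, were mrpl7 (mitochondrial ribosomal protein, Pearson r = 0.994), gpt1 (glucosyltransferase of glycoprotein folding, r = 0.994) and ero11 (oxidoreductin of the endoplasmic reticulum, r = 0.993). These r values describe log2 CPM over libraries that share depth and composition, and the best of many genes are high by selection. None of the 3 was called, with adjusted p-values of 0.287, 0.402 and 0.145.

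The upstream sequences were searched for CCCCTC on both strands, the stress-starvation response element bound by the zinc finger factor Rst2. Within 1000 bases before the start codon it was found in ght5, at 786 bases before it, and in ght3, at 914 bases before it, and not in the other 6 members. It was present in the same window of 7.51% of 5112 genes. None of the 8 promoter windows, from 250 bases before to 50 after the annotated transcript start, held it, against 2.11% of all such windows. The transcript starts of ght3, ght5, ght6 and ght7 were annotated at the start codon, so their true promoters may lie further upstream.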

How the data were processed

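Total RNA was depleted of rRNA and strand-specific, paired-end libraries with molecular indices were sequenced, 3 from aal1-pOE and 3 from evc cells. Per the study's methods and the submitters' processing notes, the authors aligned reads of 50 bases, clipped by 8 index bases and 9 more, with STAR 2.6.1a to the PomBase genome (release not named). The authors deposited whole-number counts of reads for each gene, made with HTSeq 0.12.3 in reverse strand mode and not normalised. Whether duplicates were collapsed by molecular index was not stated there. Columns of the table not used numbered 0.

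Symbols, coordinates and sequences came from RefSeq assembly ASM294v3, which matched 6805 of the 6952 identifiers. It was not the authors' annotation, so overlaps and lengths may differ from those counted. Library totals were 5839863 to 13164975 counts, and counting intervals cover counting error only.

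Counts were tested with edgeR 4.0.16 in R 4.3.3 (quasi-likelihood F test, TMM, genes above 1 CPM in at least 3 libraries, group as the only factor, Benjamini-Hochberg adjustment, threshold 0.05). SE is the size of the log2 fold change divided by the square root of F. The test was checked on simulated data. Alternatives were DESeq2 size factors, library totals, TMM without ribosomal protein genes, protein-coding genes alone, no filter, a 10 CPM filter, limma-voom (limma 3.58.1), DESeq2 1.42.0, the likelihood ratio test of edgeR, a replicate block, leaving out each library or aal1-pOE replicate 2 with evc replicate 1, and coding length. Length in unique 33-base positions and the ght4 length without the same-strand overlap were added after the data were seen. Proteins were aligned pairwise with Biopython 1.88.

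The members and lists were chosen with earlier results of these data known. The text names all members, overlapping genes in the table, the called or otherwise the smallest-p gene of each list, and the 3 genes most like ght5. Not found in the table under these names were sat1, sat4, aah4 and fui1. P-values set the difference between the groups against the spread between cultures, as the labels describe them. Whether the cultures of a group came from separate transformants was not stated.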

Additional observations from a re-analysis of the deposited data

How the results depend on the processing

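Of the 7 tested members, 0 were called higher and 0 lower with TMM. On library totals alone 1 was called higher, ght5. With both aal1-pOE replicate 2 and evc replicate 1 left out 4 were called higher (ght1, ght4, ght5 and ght8) and 1 lower (ght2). The likelihood ratio test, DESeq2 and the fit without aal1-pOE replicate 2 each called 1 member lower, ght2, with adjusted p-values of 0.0372, 0.0092 and 0.0435, and leaving out 1 library at a time gave 0 to 1 members lower and 0 higher. The log2 fold change of ght2 kept its sign in all 17 alternatives (-1.07 to -0.20, adjusted p 0.00166 to 0.488). The cause of these differences was not tested.

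For aal1 the log2 fold change with 1 evc library left out was 3.21 to 3.58, and it was no longer called without evc replicate 2 (3.21) or evc replicate 3 (3.58). Without an aal1-pOE library aal1 did not pass the filter. Signs turned for members with fitted changes near 0 or set by 1 library. With 1 library left out ght1 ranged from -0.071 (without evc replicate 3) to 0.50, ght3 from -0.20 (without aal1-pOE replicate 2) to 1.84, and SPNCRNA.1121 from -0.015 (without evc replicate 2) to 1.17. Without the pair of libraries ght6 was -0.090, and SPNCRNA.1318 was 0.59 on library totals. SPNCRNA.1118 was 0.75 on library totals, 0.0033 without a filter, 0.071 at 10 CPM, 0.062 with limma-voom, 0.021 with the replicate block, and -0.15 to 0.27 with 1 library left out.

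Samples of the same number did not deviate together (correlations 0.033, 0.0097 and 0.0065), so the numbers were not taken as pairs. With the replicate block 0 members were called higher and 0 lower, and ght2 was at -0.90 (adjusted p = 0.182). The block moved the calls over all genes from 79 higher and 270 lower to 247 and 383. Without evc replicate 2 these were 1 and 81, without evc replicate 3 they were 1 and 86, and without aal1-pOE replicate 2 they were 252 and 518. Other counts were 517 and 154 on library totals, 397 and 472 with the likelihood ratio test, 393 and 512 with DESeq2, 19 and 235 with limma-voom, and 1085 and 1131 without aal1-pOE replicate 2 and evc replicate 1.

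With 3 libraries a group, intervals of the members were wide, and ght6 and ght7, under 3 CPM, were limited by depth.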
